A study of Mus musculus with 16 samples.

Results

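The 8 genes described here, Fmod, Ogn, Dcn, Lum, Slc6a13, Slc22a6, Aldh1a2 and Igf2, are known for high expression in fibroblasts of the meninges, the membranes that cover the brain. They were taken from 55573 gene IDs in a table of read counts by their symbols, as a set whose level per library and group had already been seen in these data. The levels of the 8 genes and the differences between groups are therefore given as a description. Test calls on the 8 are printed beside those over all genes, and nothing is read from them in any comparison. All 8 were found in the table, and all had counts in each of the 16 libraries.

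RNA was sequenced from mouse cerebral cortex taken at around postnatal day 180, with no treatment, in 4 groups of 4 libraries. Aifm1-KI is a knock-in that deletes arginine 200 of Aifm1, the gene of a mitochondrial flavoprotein called apoptosis-inducing factor, and Aifm1-WT are its wild-type littermates. Hq-mut is the Harlequin mutation of the same gene, in a stock named B6CBACa Aw-J/A-Aifm1Hq/J, and Hq-WT are wild-type littermates of that stock. The labels give the strain C57BL/6 for all samples, and whether a library is 1 animal is not said, so any p-value measures only spread between libraries, which may be technical.

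In the leptomeninges, the pia and the arachnoid, fibroblasts lay down the collagens and small proteoglycans of the brain's covering, and an epithelium-like layer of arachnoid barrier cells seals it against the dura. Both carry transporters that move GABA, taurine and organic anions out of the cerebrospinal fluid, and meningeal fibroblasts make retinoic acid and insulin-like growth factor 2. The pia lies on the cortical surface and follows vessels that enter it. In bulk RNA, fewer cells of a type and less RNA per cell cannot be told apart.

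Libraries held 10671580 to 32551594 counts. On those totals, before TMM scaling, a count of 0 would allow up to 0.281 to 0.0922 CPM. That limit is 3 counts and covers counting error only. CPM is the unit of level used throughout, with each library's counts divided by its TMM-scaled size. Aifm1 was at 22.7 ± 0.81 CPM (SD, n = 4) in Aifm1-WT, 23.7 ± 1.84 in Aifm1-KI, 23.9 ± 1.25 in Hq-WT and 3.32 ± 0.79 in Hq-mut. The cortical neuron genes Camk2a and Slc17a7 were at 2644 to 4128 and 1090 to 2020 CPM over the libraries. Several libraries stood apart in markers of other tissue. The summed level of 10 choroid plexus genes, led by the thyroxine carrier Ttr, was 5554 CPM in Hq-WT 2 and 2894 in Aifm1-KI 2, against 6.93 to 386 elsewhere. The summed level of 8 liver genes, led by albumin (Alb), was 279 and 321 CPM in Aifm1-WT 1 and 2, against 1.12 to 33.8 elsewhere. A sum over 10 striatal genes was 641, 591 and 856 CPM in Aifm1-KI 2, Aifm1-KI 4 and Hq-mut 3, against 227 to 367 elsewhere.

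Since most of the genes moved together, their promoters were read. RefSeq gave 11 start sites for 6 of the 8 genes, Dcn and Lum having no entry, and each window below holds the 250 bases before a start on GRCm38.p6, read 5′ to 3′. Those of Ogn, Slc22a6 and Slc6a13 are shown because each window holds GGAATG, a site of TEAD transcription factors, and that of Fmod because it holds none of the motifs searched. All these genes are among those that moved together, but they were picked by motif and not by how alike they were. Capitals mark GGAATG or its reverse complement CATTCC and, on the strand of the gene, TATAAA.
Ogn (chr13:49607765-49608014, plus strand): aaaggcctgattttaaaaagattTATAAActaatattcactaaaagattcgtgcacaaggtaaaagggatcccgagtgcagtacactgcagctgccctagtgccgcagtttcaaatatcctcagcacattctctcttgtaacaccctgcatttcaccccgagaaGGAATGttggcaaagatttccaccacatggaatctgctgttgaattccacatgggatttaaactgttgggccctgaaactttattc
Slc22a6 (chr19:8617746-8617995, plus strand): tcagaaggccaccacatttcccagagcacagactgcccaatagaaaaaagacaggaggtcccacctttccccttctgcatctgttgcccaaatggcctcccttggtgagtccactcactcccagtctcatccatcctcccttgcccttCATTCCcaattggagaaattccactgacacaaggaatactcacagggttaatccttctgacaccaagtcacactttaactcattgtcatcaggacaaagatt
Slc6a13, first start (chr6:121300038-121300287, plus strand): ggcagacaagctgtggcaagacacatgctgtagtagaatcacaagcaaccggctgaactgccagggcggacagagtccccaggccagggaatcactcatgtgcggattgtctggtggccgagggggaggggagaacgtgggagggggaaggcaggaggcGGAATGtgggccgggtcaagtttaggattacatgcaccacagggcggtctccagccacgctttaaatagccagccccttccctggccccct
Fmod (chr1:134037004-134037253, plus strand): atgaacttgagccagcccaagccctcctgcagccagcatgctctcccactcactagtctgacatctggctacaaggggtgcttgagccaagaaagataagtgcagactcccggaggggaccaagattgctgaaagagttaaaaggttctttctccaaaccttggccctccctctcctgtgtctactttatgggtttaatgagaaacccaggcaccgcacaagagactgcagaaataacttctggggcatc

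Counted from the start, GGAATG on either strand begins at base -86 in Ogn, -102 in Slc22a6 and -91 in the first of the 3 windows of Slc6a13, whose other 2 windows do not hold it. It is also in 3 of the 4 windows of Igf2, at -218 and -112, at -180 and at -163, and in no window of Aldh1a2 or Fmod. Slc22a6 and Aldh1a2, the pair of members most alike over the libraries, thus differ in this motif. Of 32851 RefSeq windows of this length, 12.6% hold GGAATG on either strand. TATAAA was found at base -227 of Ogn, and 7.59% of all windows hold it. The forkhead motif GTAAACA, searched on both strands because Foxc1 and Foxd1 mark meningeal fibroblasts, was in none of the 11 windows and is in 3.17% of all. These motifs were chosen after the windows had been seen, the 3 do not overlap one another in these windows, and a match describes letters only.

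Over the 16 libraries, 6 of the genes followed one pattern and 2 departed from it. Slc6a13, Slc22a6, Aldh1a2, Fmod, Ogn and Igf2 were high in Aifm1-WT and in 3 of the 4 Aifm1-KI libraries, low in Aifm1-KI 3, and in the Harlequin stock low in libraries 1 and 2 of both genotypes and higher in libraries 3 and 4. Dcn and Lum, whose genes lie side by side, departed from this order and from each other. Dcn was also low in Aifm1-KI 3, and lower in libraries 1 and 2 than in 3 and 4 of Hq-mut. In Hq-WT, however, library 1 was its highest. The plot of levels by library shows each value.

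**Figure D1:**
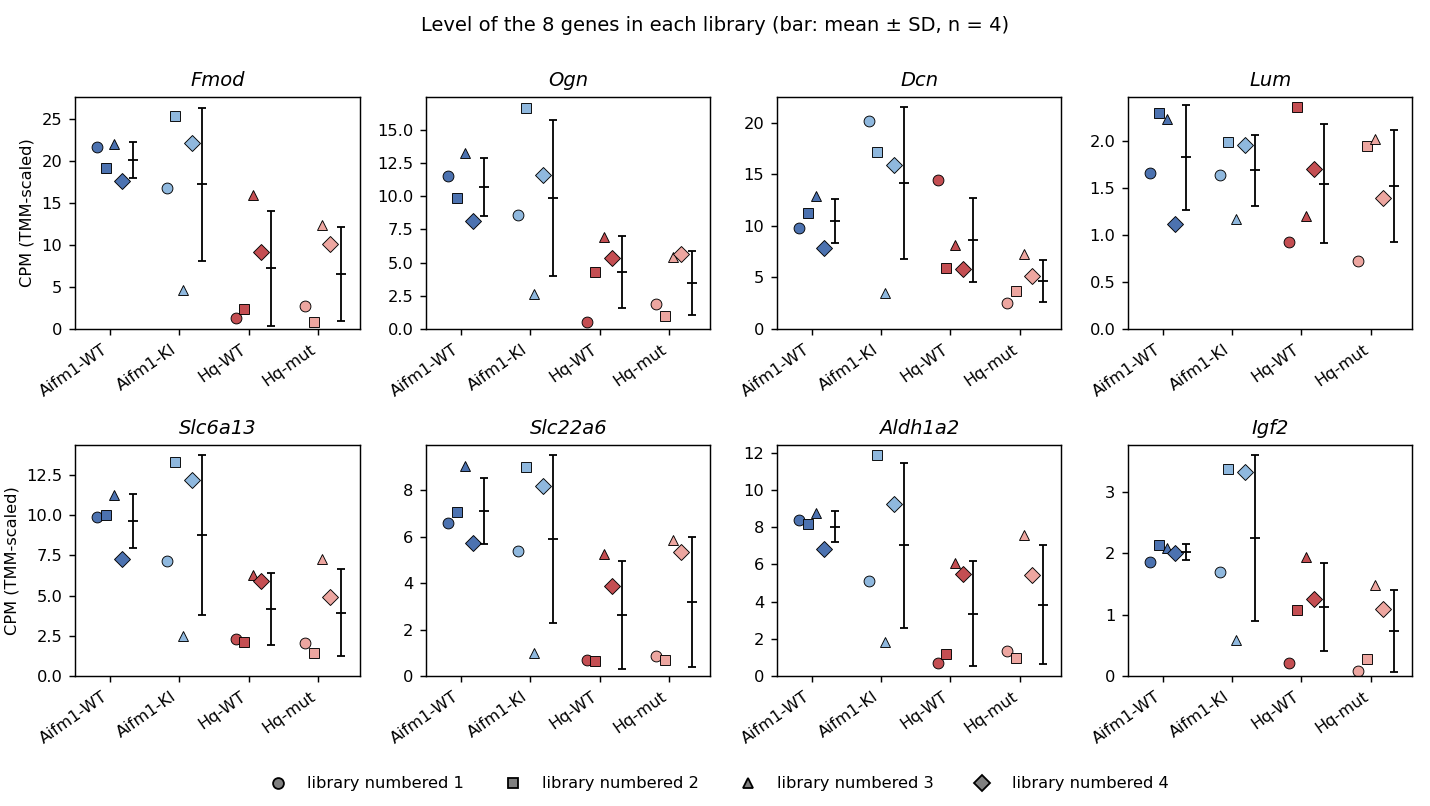
Each panel plots 1 gene, with its level in CPM (TMM-scaled) on the vertical axis and the 4 groups on the horizontal axis; a symbol is 1 library, its shape the library's number, and the bar is the mean ± SD (n = 4). Fmod in Aifm1-KI 3 lies at 4.61 CPM against 16.8 to 25.3 in the other Aifm1-KI libraries, and in the Harlequin stock the circles and squares of libraries 1 and 2 lie under the other 2 in both genotypes for 6 of the genes.

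Small leucine-rich proteoglycans bind collagen fibrils and set their spacing and diameter. Fmod, fibromodulin (ENSMUSG00000041559, GRCm38 chromosome 1, 134037254 to 134048277, plus strand), had the highest level per length of the 8. It was at 21.6, 19.2, 22.1 and 17.6 CPM in Aifm1-WT libraries 1 to 4, and at 16.8, 25.3, 4.61 and 22.1 CPM in Aifm1-KI. In Hq-WT it was at 1.31, 2.31, 16 and 9.18 CPM, and in Hq-mut at 2.70, 0.874, 12.3 and 10.2 CPM. The wild types of the stocks did not overlap, whereas mutant and wild type overlapped in each stock. Fmod spanned 29.0 times from its lowest library, Hq-mut 2, to its highest, Aifm1-KI 2.

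Ogn, osteoglycin or mimecan (ENSMUSG00000021390, chromosome 13, 49608046 to 49624501, plus strand), lies within Cenpp, a gene on the opposite strand with which it shares no exon base. It was at 11.5, 9.85, 13.3 and 8.14 CPM in Aifm1-WT and 8.56, 16.7, 2.6 and 11.6 CPM in Aifm1-KI. Hq-WT held 0.544, 4.26, 6.93 and 5.34 CPM, and Hq-mut 1.88, 0.953, 5.40 and 5.66 CPM. The pattern was that of Fmod except in Hq-WT 2, where Ogn stood at 4.26 CPM, nearer to libraries 3 and 4 of its group than to library 1.

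Dcn, decorin (ENSMUSG00000019929, chromosome 10, 97479609 to 97518143, plus strand), also binds transforming growth factor beta. Its level was 9.79, 11.3, 12.9 and 7.88 CPM in Aifm1-WT and 20.2, 17.1, 3.44 and 15.9 CPM in Aifm1-KI. In Hq-WT it was 14.5, 5.91, 8.13 and 5.83 CPM, and in Hq-mut 2.53, 3.65, 7.29 and 5.11 CPM. Aifm1-KI thus held the 3 highest libraries and also 1 of the 3 lowest, and Hq-WT 1, the lowest Fmod library of its group, was the highest of that group for Dcn. The ratio of Fmod to Dcn counts was accordingly 0.0902 in Hq-WT 1, against 1.97 in Hq-WT 3 and 1.58 in Hq-WT 4.

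Lum, lumican (ENSMUSG00000036446, chromosome 10, 97565128 to 97572703, plus strand), a keratan sulfate proteoglycan, starts 46985 bases after the end of Dcn on the same strand. It was at 1.66, 2.3, 2.24 and 1.11 CPM in Aifm1-WT and 1.64, 1.99, 1.17 and 1.96 CPM in Aifm1-KI. Hq-WT held 0.925, 2.36, 1.20 and 1.70 CPM, and Hq-mut 0.728, 1.95, 2.02 and 1.39 CPM. All 4 groups overlapped, and Lum varied least of the 8, by 3.25 times from Hq-mut 1 to Hq-WT 2.

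Of the transporters, Slc6a13 encodes GAT2, which takes up GABA and taurine (ENSMUSG00000030108, chromosome 6, 121300227 to 121337733, plus strand). Its level was 9.88, 10.01, 11.3 and 7.30 CPM in Aifm1-WT and 7.13, 13.3, 2.51 and 12.2 CPM in Aifm1-KI. It was 2.34, 2.11, 6.29 and 5.92 CPM in Hq-WT and 2.10, 1.47, 7.29 and 4.94 CPM in Hq-mut. No Hq-WT library reached the lowest of Aifm1-WT, and within the Harlequin stock libraries 1 and 2 were under libraries 3 and 4 in either genotype.

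Slc22a6 encodes the organic anion transporter OAT1 (ENSMUSG00000024650, chromosome 19, 8618039 to 8628299, plus strand). Aifm1-WT libraries held 6.60, 7.06, 9.07 and 5.74 CPM and Aifm1-KI libraries 5.39, 9.0, 1.01 and 8.20 CPM. Hq-WT held 0.707, 0.668, 5.27 and 3.88 CPM, and Hq-mut 0.856, 0.715, 5.85 and 5.36 CPM. Harlequin libraries 1 and 2 lay under 1 CPM in both genotypes, on 13 and 13 counts in Hq-WT and 20 and 18 in Hq-mut, and libraries 3 and 4 lay above 3 CPM.

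Aldh1a2 encodes RALDH2, which makes retinoic acid from retinal (ENSMUSG00000013584, chromosome 9, 71215789 to 71296243, plus strand). It was at 8.41, 8.15, 8.74 and 6.81 CPM in Aifm1-WT and 5.12, 11.9, 1.84 and 9.25 CPM in Aifm1-KI. Hq-WT libraries held 0.707, 1.18, 6.10 and 5.49 CPM, and Hq-mut 1.37, 0.993, 7.56 and 5.45 CPM. The Harlequin stock again split by library number and not by genotype, and all of Hq-WT lay under all of Aifm1-WT.

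Igf2, the insulin-like growth factor 2 gene (ENSMUSG00000048583, chromosome 7, 142650766 to 142666816, minus strand), is made in the adult brain chiefly by meninges and choroid plexus. Its value is uncertain: 3596 of its 5723 exon bases (62.8%) are shared with Gm49394 on the same strand, which had 0 counts in every library, while Igf2 had 545 counts over all 16. A further 98 bases are shared with the antisense gene Igf2os, and the strand setting of the counting is not given in the sources used here. Igf2 was at 1.85, 2.14, 2.08 and 2.0 CPM in Aifm1-WT and 1.69, 3.36, 0.587 and 3.32 CPM in Aifm1-KI. It was at 0.218, 1.08, 1.94 and 1.26 CPM in Hq-WT and 0.0856, 0.278, 1.48 and 1.10 CPM in Hq-mut. The lowest of these rests on 2 counts, in Hq-mut 1, so the span of 39.2 times from lowest to highest has a wide counting error. Hq-WT 2 and Aifm1-KI 2, the libraries highest in choroid plexus genes, held 1.08 and 3.36 CPM of Igf2.

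Per kilobase of exon, the order of mean levels over the 16 libraries was Fmod at 3.86 ± 2.56 CPM per kilobase (SD, n = 16), Ogn at 2.76 ± 1.81, Aldh1a2 at 2.46 ± 1.53, Slc6a13 at 2.28 ± 1.34, Dcn at 1.62 ± 0.91, Slc22a6 at 1.18 ± 0.77, Lum at 0.67 ± 0.21 and Igf2 at 0.27 ± 0.17. Neighbours in this order differed by less than the larger of their SDs, except Lum and Igf2. In Aifm1-WT alone Fmod stood apart more clearly, at 6.09 ± 0.64 CPM per kilobase (SD, n = 4) against 4.17 ± 0.86 for Ogn and 3.55 ± 0.37 for Aldh1a2. In Hq-mut the same 3 were at 1.97 ± 1.69, 1.35 ± 0.94 and 1.70 ± 1.41 CPM per kilobase (SD, n = 4), which overlap.

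Likeness of patterns was measured as the mean absolute difference between standardised log2 CPM, in SD units over the 16 libraries, so that 0 is the same pattern. Among the 15 pairs of the 6 genes it ran from 0.138, for Slc22a6 with Aldh1a2, to 0.327, for Igf2 with Slc22a6. The 13 pairs that include Dcn or Lum lay between 0.547 and 0.879, and the least alike was Dcn with Lum. Dcn and Lum were therefore less like the other 6 genes than those were like one another. Their distances to the mean of the other members were 0.551 and 0.719 SD. Lum had only 13 to 68 counts per library and the lowest coefficient of variation of the 8, 30.9%. Standardising enlarges counting error in such a gene, and the part of this in its distance was not tested. All points share library and depth. The heat map of standardised levels orders the libraries by the mean of the 8 genes.

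**Figure D2:**
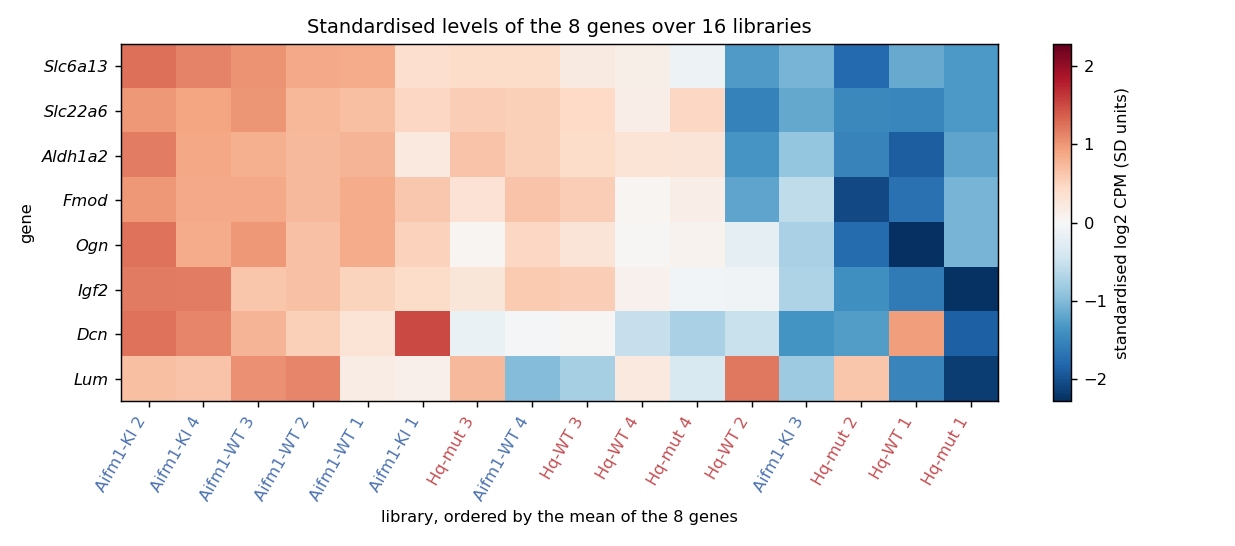
Rows are the 8 genes and columns the 16 libraries, ordered by the mean of the genes (blue names, Aifm1 stock; red names, Hq stock); colour is the standardised log2 CPM of each gene in SD units. Aifm1-KI 3 sits among the lowest libraries with the Hq libraries 1 and 2, and Dcn in Hq-WT 1 and Lum in Hq-mut 2 are the cells that depart most from the means of their columns.

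The genes most like the mean profile of the 8, outside the set and among 16018 genes with a mean log2 CPM of at least 0, were named by the 10 smallest distances, against a median distance of 1.13 SD over those genes. The closest was Crabp2, a carrier of retinoic acid, at 0.183 SD, followed by Colec12, a scavenger receptor, at 0.207, Ptgfr, the prostaglandin F receptor, at 0.210 and Col4a6, a basement membrane collagen, at 0.226. Then came Col1a1 at 0.234, Emilin1 at 0.237, Slc13a3 at 0.250, Slc6a20a at 0.251, Cped1 at 0.256 and Foxc1, a forkhead factor of meningeal fibroblasts, at 0.264 SD. Col1a1, the main fibrillar collagen chain of fibroblasts, was at 10.9 ± 2.28 CPM (SD, n = 4) in Aifm1-WT, 10.7 ± 5.18 in Aifm1-KI, 4.89 ± 3.65 in Hq-WT and 5.33 ± 3.34 in Hq-mut. Of these 10, Crabp2, Col1a1, Slc13a3 and Foxc1 were on lists named for meningeal cells, of 26 other leptomeningeal fibroblast genes and 8 arachnoid barrier cell genes. Median distances were 0.357 SD for 24 ranked leptomeningeal genes and 0.355 for 5 ranked arachnoid genes, and for 3 ranked border macrophage genes 0.317, whereas pericyte and smooth muscle genes had 0.602 and endothelial genes 1.13.

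In the knock-in stock the members' means differed little between genotypes. Differences between Aifm1-KI and Aifm1-WT, as edgeR's log2 fold change with its standard error, were -0.18 (0.36) for Fmod, -0.06 (0.40) for Ogn, -0.07 (0.26) for Lum, -0.07 (0.38) for Slc6a13, -0.20 (0.43) for Slc22a6 and -0.13 (0.40) for Aldh1a2. Dcn and Igf2 were higher in the knock-in, by 0.48 (0.39) and 0.24 (0.38). The median of the 8 was -0.07, beside 0.01 over the 18383 genes tested. With Aifm1-KI 3 left out all 8 were higher, with a median of 0.17, and with Aifm1-KI 2 and 4 left out 7 of 8 were lower, with a median of -0.83. No member was called at an adjusted p under 0.05, and neither was any gene of 18383 (0%), where 2094 had an unadjusted p under 0.05 in edgeR's quasi-likelihood test, DESeq2 called 82 and edgeR without Aifm1-KI 3 called 46. The genotypes overlapped for all 8 members; of all genes tested, 2.03% were higher and 2.83% lower with no overlap.

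Among the 26 other leptomeningeal genes in the knock-in stock, 17 were lower and 9 higher with a median of -0.11, and 0 were called. The smallest p belonged to Foxd1, a forkhead factor, at -0.53 (0.29; edgeR adjusted p = 0.499), while the most abundant, the fibrillar collagen Col5a1, was at -0.51 (0.44; edgeR adjusted p = 0.668). Col5a1 did not follow the members over the libraries. It was at 22.7 CPM in Aifm1-KI 2 and 91.0 in Aifm1-KI 3, where the members summed to 98.6 and 17.8 CPM. In the other lists the smallest p was that of the gap junction gene Gjb2 (-0.44, SE 0.26), the proteoglycan Epyc (0.80, SE 0.29), the retinoid receptor Rxrg (2.57, SE 0.71), Igfbp6, a binding protein of insulin-like growth factors (-0.71, SE 0.24), and the organic anion transporter Slco1a4 (-0.46, SE 0.17). None of these passed, the lowest adjusted p in edgeR's quasi-likelihood test being 0.368. Rxrg was at 17.4 and 9.55 CPM in Aifm1-KI 2 and 4, the libraries high in striatal genes, and at 1.42 to 2.06 in the other 2; the part of striatal RNA in this was not tested.

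In the Harlequin stock the differences between genotypes were small beside those between library numbers for the 6 genes other than Dcn and Lum. From Hq-WT to Hq-mut, edgeR's log2 fold change was -0.14 (SE 0.85) for Fmod, -0.30 (0.68) for Ogn, -0.06 (0.38) for Lum, -0.09 (0.54) for Slc6a13, 0.29 (0.82) for Slc22a6, 0.19 (0.77) for Aldh1a2 and -0.59 (0.75) for Igf2. Dcn had the largest, at -0.91 (0.38), and was lower in Hq-mut in all 4 pairs of libraries with the same number, by -2.52, -0.69, -0.16 and -0.19 on the log2 scale. Most of that lay in pair 1, where Hq-WT 1 was high, and the groups overlapped. Igf2 was lower in all 4 pairs, by -1.35, -1.96, -0.39 and -0.20, and Slc22a6 higher, by 0.28, 0.10, 0.15 and 0.46, whereas Ogn and Fmod were higher in 2 pairs and lower in 2. The standard errors above are from the fit without pairs, so they include the spread between library numbers. The median of the 8 was -0.12, beside 0.01 over 17969 genes tested. Without Hq-mut 3 it was -0.58, and without Hq-mut 1 it was 0.12, so its sign turned with 1 library.

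In that comparison 0 of 8 members were called, beside 0.0167% of genes tested (3, by edgeR's quasi-likelihood test; 385 had an unadjusted p under 0.05 and DESeq2 called 3). No member separated the genotypes without overlap, against 0.857% of genes higher and 0.723% lower. The list of other leptomeningeal genes split evenly, with 13 higher and 12 lower of 25 tested and a median of 0.03. Its smallest p was that of Col5a1, at -0.75 (SE 0.20; edgeR adjusted p = 1.0), for which the 4 Hq-mut libraries, at 25.6 to 37.5 CPM, lay under the 4 Hq-WT libraries, at 38.0 to 73.7. Within Hq-WT, Col5a1 was highest in library 1, where the members' sum was low, so nothing about meningeal fibroblasts is read from it. Members of the other lists with the smallest p were Dpp4 of arachnoid barrier cells (0.48, SE 0.22), the proteoglycan Ecm2 (-0.71, SE 0.23), the retinol receptor Stra6 (0.96, SE 0.31), Igfbp2 (-1.36, SE 0.43) and the thyroid hormone transporter Slco1c1 (-0.46, SE 0.12), and none passed. Igfbp2 was at 86.8 CPM in Hq-WT 2, the library highest in choroid plexus genes, against 19 to 37.8 in the rest of its group; the part of choroid plexus RNA in this was not tested.

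The difference of the mutation effects, knock-in minus Harlequin, was 1.37 (SE 0.60) for Dcn and 0.80 (0.88) for Igf2 on the log2 scale, and lay between -0.54 and 0.21 for the other 6. The median was -0.01, beside 0.00 over 19129 genes tested, and 0 of 8 members were called, beside 0.0105% of genes (2, by edgeR; 972 had an unadjusted p under 0.05, and DESeq2 called 5). Of the 26 leptomeningeal genes 11 were higher and 15 lower, and 0 were called. The smallest p in the lists were those of Igfbp2 (1.74, SE 0.60), Dpp4 (-0.93, SE 0.43), Optc (2.87, SE 0.88), the retinoic acid receptor Rara (-0.85, SE 0.27) and Slco1c1 (0.31, SE 0.15), and none passed. Igfbp2 was at 86.8 CPM in Hq-WT 2 and 59.7 in Aifm1-KI 2, the libraries highest in choroid plexus genes. Optc was at 2.02 and 1.09 CPM in Aifm1-KI 2 and 4, against 0.211 and 0.251 in Aifm1-KI 1 and 3. The part of other tissue in these values was not tested.

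**Figure D3:**
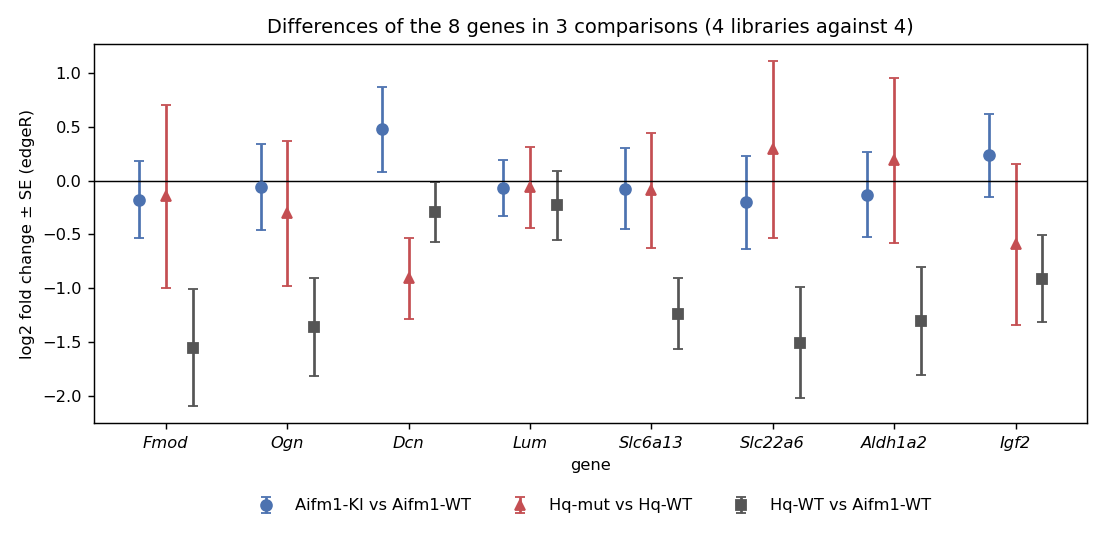
The log2 fold change ± SE (edgeR, 4 libraries against 4) of each gene on the vertical axis, for Aifm1-KI against Aifm1-WT, Hq-mut against Hq-WT and Hq-WT against Aifm1-WT. Between genotypes the 6 genes other than Dcn and Igf2 lie between -0.30 and 0.29, while between the wild types 5 genes lie between -1.55 and -1.24 and Dcn and Lum at -0.29 and -0.23.

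Between the wild types of the stocks the members other than Dcn had larger log2 fold changes than between genotypes. From Aifm1-WT to Hq-WT, edgeR's log2 fold change was -1.55 (SE 0.54) for Fmod, -1.51 (0.52) for Slc22a6, -1.36 (0.46) for Ogn, -1.30 (0.50) for Aldh1a2, -1.24 (0.33) for Slc6a13 and -0.91 (0.41) for Igf2. Dcn and Lum were at -0.29 (0.28) and -0.23 (0.32). All 8 were lower in Hq-WT, with a median of -1.27, beside 0.00 over the 18106 genes tested. For Fmod, Slc22a6, Ogn, Aldh1a2 and Slc6a13, 5 of the 8, the libraries did not overlap, against 4.59% of genes lower without overlap and 2.69% higher. At an adjusted p under 0.05 in edgeR's quasi-likelihood test 0 of 8 were called, beside 0.558% of genes (101 of 18106, 60 lower and 41 higher; 2304 had an unadjusted p under 0.05), and since the members were chosen on these levels nothing is read from either count. The median stayed between -1.57 and -0.96 with any 1 library left out. Stock, and anything processed with it, cannot be told apart in this comparison.

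Other genes listed for leptomeningeal fibroblasts mostly went in the same direction, and 1 passed the test, beside 0.558% of all genes tested. This list was also chosen with earlier results of these data known, so its counts are a description only. Of the 26 other leptomeningeal fibroblast genes 22 were lower in Hq-WT and 4 higher, with a median of -0.76. Slc47a1, the organic cation extruder MATE1, fell by 3.48 on the log2 scale (SE 0.66; edgeR adjusted p = 0.0465), from 8.89, 2.91, 4.64 and 2.40 CPM in Aifm1-WT to 0.109, 0.257, 1.48 and 0.194 CPM in Hq-WT. It was lower in 4 of 4 Hq-WT libraries, and the adjusted p ranged from 5.84e-05 to 0.150 over the alternatives. Leaving out Aifm1-WT 1, 2 or 3, or Hq-WT 1, 2 or 4, ended the call, with an adjusted p of 0.145, 0.12, 0.124, 0.150, 0.0684 and 0.0903 (edgeR). Slc47a1 is also made in kidney and liver. It was at 8.89 and 2.91 CPM in Aifm1-WT 1 and 2, where liver genes summed to 279 and 321 CPM, and at 4.64 and 2.40 in Aifm1-WT 3 and 4, where they summed to 33.8 and 23.0; the part of liver RNA in this was not tested. Without overlap and lower in Hq-WT were also Crabp2, Fbln1, Serping1, Col5a1 and Col1a2, of which none passed. That made 6 of the 26, beside 4.59% of all genes tested, with Col5a1, which did not follow the members over the libraries, among them.

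Among 6 tested arachnoid barrier genes 4 were lower and 2 higher, with a median of -0.67, and 0 were called. The smallest p was that of Cdh1, E-cadherin of the arachnoid barrier, at -2.10 (SE 0.52; edgeR adjusted p = 0.118). The most abundant, the transcription factor Klf5, stood at 11.3 to 22.9 CPM over all libraries with no split by group. Of 9 tested genes on the list of GABA, taurine and organic anion transporters 7 were lower and 2 higher, with a median of -0.03. The only one called was Slc47a1, which is on this list too although it moves organic cations. Slc22a8, the OAT3 gene beside Slc22a6 at a distance of 6204 bases, was at 11.6 to 15.8 CPM in Aifm1-WT and 5.65 to 10.3 in Hq-WT (-0.85, SE 0.18; edgeR adjusted p = 0.0732). Slc6a6, the taurine transporter, was the most abundant of the list, at 135 to 163 CPM in Aifm1-WT and 112 to 164 in Hq-WT, with a log2 fold change of -0.012 that turned to 0.0017 with relative log expression size factors.

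The 13 other small leucine-rich proteoglycans include the neighbours of the members in their gene clusters. Of 9 tested between the wild types 8 were lower in Hq-WT and 1 higher, with a median of -0.42, and 0 were called. The smallest p was that of biglycan (Bgn), at -0.80 (SE 0.25; edgeR adjusted p = 0.205). Prelp, 115840 bases before Fmod and the most abundant, was at 17.4 to 20.1 CPM in Aifm1-WT and 9.37 to 16.4 in Hq-WT, and at 4.67 to 11.8 in Hq-mut. Omd, 15224 bases before Ogn, was at 1.33 to 2.23 CPM in Aifm1-WT and 0.272 to 1.07 in Hq-WT, whereas Aspn, next to Omd, was at 1.16 to 1.98 and 1.31 to 2.13 CPM, which overlap. Ecm2 was at 4.27 to 6.28 and 2.88 to 4.90 CPM. Kera, beside Lum, was at 0 to 0.106 CPM over all libraries, and Epyc after it was at 0.0924 to 1.58 CPM.

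No gene of the retinoic acid or insulin-like growth factor lists was called between the wild types. Of 15 tested retinoic acid pathway genes 11 were lower and 4 higher in Hq-WT, with a median of -0.10, and the smallest p was that of Crabp2, at -1.28 (SE 0.40; edgeR adjusted p = 0.210). Aldh1a1, the RALDH1 gene, was at 29.4 to 33.8 CPM in Aifm1-WT and 28.4 to 56.0 in Hq-WT, and thus overlapped, unlike Aldh1a2. Rxrb, a retinoid X receptor and the most abundant of the list, was at 55.5 to 62.0 and 54.8 to 69.4 CPM. Of 12 tested insulin-like growth factor genes 7 were lower and 5 higher, with a median of -0.06. Igfbp5, the most abundant and the one with the smallest p, was at -0.64 (SE 0.20; edgeR adjusted p = 0.214). Igf2r, which clears the Igf2 protein, was at 40.1 to 46.8 CPM in Aifm1-WT and 37.3 to 53.1 in Hq-WT.

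Markers of other cells moved with the members to different degrees. The 6 border macrophage genes, led by the mannose receptor Mrc1 and by F13a1, mark macrophages that live in the meninges and around vessels, and their summed level ran along with that of the members. It was 12.5, 12.4, 13.2 and 12.4 CPM in Aifm1-WT, 10.2, 13.7, 5.53 and 13.3 in Aifm1-KI, 3.21, 3.44, 8.41 and 7.33 in Hq-WT, and 3.68, 2.82, 7.74 and 8.61 in Hq-mut. The 5 libraries under 5 CPM of Fmod held 2.82 to 5.53 CPM of these macrophage genes, and the other 11 held 7.33 to 13.7. None of the 6 was at 0 in any library. Between the wild types 4 of 4 tested were lower, with a median of -1.44, and Cd163, a scavenger receptor, fell by 1.74 on the log2 scale (SE 0.29; edgeR adjusted p = 0.0286), from 1.80 to 2.71 CPM in Aifm1-WT to 0.360 to 1.02 CPM in Hq-WT, lower in 4 of 4. Cd163 was singled out after its values were seen, and its adjusted p ranged from 0.000149 to 0.117 over the alternatives, the call ending without Aifm1-WT 1, 2, 3 or 4 (0.116, 0.117, 0.0585 and 0.0574) or Hq-WT 1 (0.103).

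**Figure D4:**
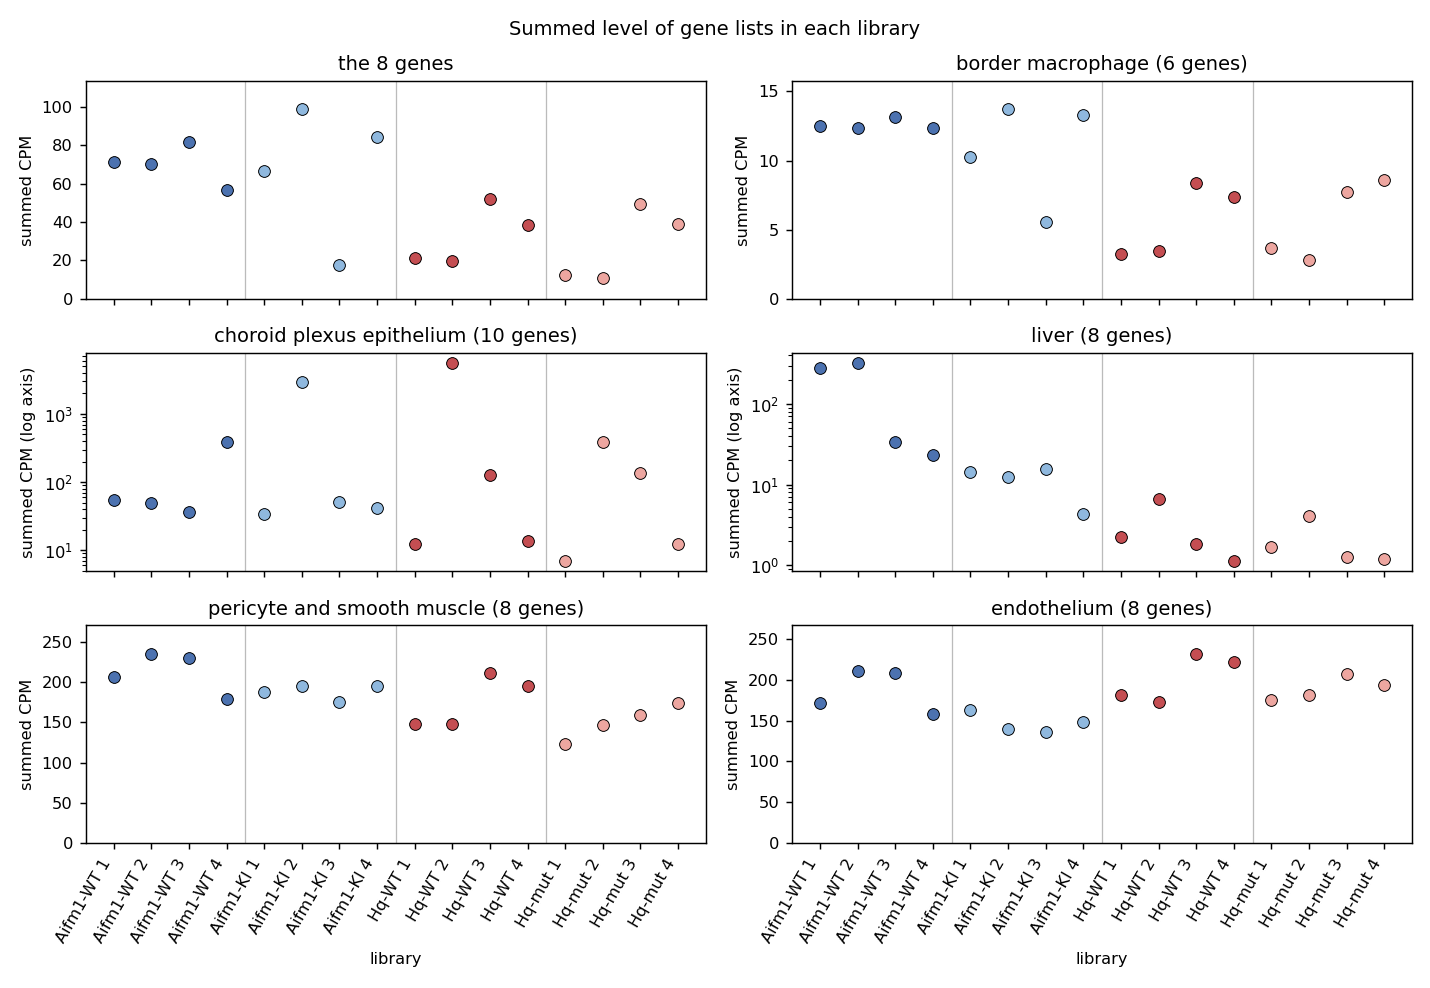
Summed CPM of marker lists in each library, grouped left to right as Aifm1-WT, Aifm1-KI, Hq-WT and Hq-mut; the choroid plexus and liver panels have log axes. The sums of the 8 genes and of border macrophage genes are low in the same libraries, Aifm1-KI 3 and Hq libraries 1 and 2, while choroid plexus peaks in Aifm1-KI 2 and Hq-WT 2.

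The summed level of the 8 genes was 71.3, 70.0, 81.6 and 56.6 CPM in Aifm1-WT, 66.5, 98.6, 17.8 and 84.5 in Aifm1-KI, 21.2, 19.9, 51.9 and 38.6 in Hq-WT and 12.2, 10.9, 49.2 and 39.2 in Hq-mut. Choroid plexus genes did not follow this order: of the 2 libraries that held most of them, Aifm1-KI 2 was the highest for the members and Hq-WT 2 was among the low ones. Liver transcripts differed between the wild types, with Alb, Apoa2 and Mup3, named after their values were seen, at log2 fold changes of -6.18, -5.43 and -5.36 (edgeR adjusted p = 0.0256, 0.0457 and 0.0465). The call on Alb ended without Aifm1-WT 1, Aifm1-WT 2 or Hq-WT 1 (edgeR adjusted p = 0.0710, 0.0665 and 0.103). Those on Apoa2 and Mup3 ended without Aifm1-WT 1 or 2 or any 1 of the Hq-WT libraries (edgeR adjusted p of 0.0549 to 0.150 and 0.0620 to 0.158). The members' sum was 71.3 and 70.0 CPM in the Aifm1-WT libraries with high liver sums and 81.6 and 56.6 in the other 2. Pericyte and smooth muscle genes summed to 179 to 235 CPM in Aifm1-WT, 176 to 195 in Aifm1-KI, 148 to 211 in Hq-WT and 123 to 174 in Hq-mut, and endothelial genes to 158 to 210, 137 to 163, 173 to 231 and 175 to 206, and none of either list was at 0 in a library. In the Harlequin stock both sums lay lower in libraries 1 and 2 than in 3 and 4. For pericyte and smooth muscle genes they were 148, 148, 211 and 195 CPM in Hq-WT and 123, 147, 159 and 174 in Hq-mut. Endothelial genes had 181, 173, 231 and 221, and 175, 181, 206 and 193. Astrocyte genes split likewise, at 4738, 3122, 6450 and 6089, and 4648, 3187, 5729 and 6130. A split by library number was thus not particular to the members. The part of any of these cells in the members' levels was not tested.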

How the data were processed

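RNA was measured in 16 cortex libraries. Per the series' design text, the authors trimmed 51-base single-end reads, mapped them to mm10 with STAR (2.6 per the submitters' processing notes) and made the deposited values, whole-number read counts per Ensembl gene, with htseq-count, and tested with edgeR. Neither the strand setting nor the annotation release is given in the sources used here. IDs were paired with symbols and positions in GENCODE M21 on GRCm38 for 55394 of 55573. Totals are those of the deposited columns, and no library was a copy of another (smallest chi-square per gene 3.23 within a group, and 3.12 over all pairs, for Aifm1-WT 4 with Aifm1-KI 3).

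CPM were scaled with TMM factors over all 16 libraries. Comparisons were made in R 4.3.3 by edgeR 4.0.16 (default filter on low counts, quasi-likelihood F-test, Benjamini-Hochberg adjusted p under 0.05 over all genes tested), and a standard error is the log2 fold change over the root of its F statistic. DESeq2 1.42.0, other size factors, no filter, a replicate block and libraries left out were alternatives. The procedure was run on simulated data with large known changes in well-counted genes. That checked the calculation only, and covers neither low counts, nor pairs, nor RNA of other tissue. Likeness used log2 CPM with a prior count of 2 counts. Same-numbered Harlequin libraries deviated together (correlations 0.431, 0.534, 0.409 and 0.453), so their numbers were read as pairs; the source is the data, since the labels do not say what a number marks.

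The members and all gene lists were chosen with earlier results of these data known. A gene of the transporter list is not reported here and is in none of its counts. Beyond the members, the text names of each pathway list up to 4 called genes or the one with the smallest p, and the most abundant; of each marker list its sum and the 2 most abundant genes; the 10 genes most alike; and neighbours of the members among small leucine-rich proteoglycans. Other genes, the called marker genes Cd163, Alb, Apoa2 and Mup3 among them, were named after their values were seen.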

Additional observations from a re-analysis of the deposited data

Results flagged for a closer look

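Of 104 sets of 4 libraries examined, 8 had a library whose gap to the nearest other exceeded 0.829 of the group's range, where chance gives about 1 in 20. No value of a single member was among them, and for some the gap was large only because the others lay close together. In Aifm1-WT, library 3 held 59.5 CPM of arachnoid barrier genes against 56.5 to 56.7, and 13.2 CPM of border macrophage genes against 12.4 to 12.5. Library 4 of that group held 43.5 CPM of small leucine-rich proteoglycans against 55.2 to 56.5, and 386 CPM of choroid plexus genes against 36.8 to 54.6. Choroid plexus genes also set apart Aifm1-KI 2, at 2894 CPM against 34.0 to 50.5, and Hq-WT 2, at 5554 CPM against 12.3 to 126. Hq-WT 3 held 45.8 CPM of small leucine-rich proteoglycans against 35.04 to 35.5, and Hq-mut 2 held 4.09 CPM of liver genes against 1.18 to 1.67.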

How the results depend on the processing

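No setting called a member in the comparisons of genotypes or in the difference of effects. Between the wild types 4 members were called without a filter on low counts, beside 560 of 36203 genes, and 1 by DESeq2, beside 421 of 18106. All 8 stayed lower under every alternative run. Since the members were chosen on these levels, nothing is read from these counts or from that direction. Counts of genes called depended on the tool and on single libraries. For Aifm1-KI against Aifm1-WT, DESeq2 called 82 and the range with 1 library left out was 0 to 46, the 46 without Aifm1-KI 3. For Hq-mut against Hq-WT that range was 1 to 2, and 1 was called without the libraries numbered 2 and 1 without those numbered 3. For the difference of effects DESeq2 called 5, and 1 to 2 were called with 1 library left out. Between the wild types 560 were called without a filter and 421 by DESeq2, and 32 to 231 with 1 library left out: 37, 32 and 42 without Aifm1-WT 1, 2 and 3, and 49, 169, 231 and 174 without Hq-WT 1 to 4. The cause was not tested.

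Signs of members turned in the comparisons of genotypes, none called: with 1 library left out, 1 to 8 of the 8 were higher in the knock-in, 0 to 5 in Hq-mut and 2 to 7 for the difference of effects. Signs also turned for genes outside the members, none called. Without Aifm1-KI 2 and 4 these were, in log2, Col5a1 at 0.071, Klf5 at 0.19, Prelp at -0.26, Igfbp5 at 0.13 and Slc6a6 at -0.012, and without the Harlequin libraries numbered 2 Rxrb at -0.013 and Slc6a6 at -0.0057. Slc6a6, near 0 in every comparison, also turned without a filter for the difference of effects (-0.0035), and between the wild types with relative log expression size factors, without a filter and by DESeq2 (0.0017, 0.0030 and 0.0020). With 1 library left out the ranges were, for the knock-in, -0.19 to 0.056 for Klf5 and -0.010 to 0.081 for Slc6a6; for Harlequin, -0.083 to 0.12 for Rxrb, -0.025 to 0.33 for Igfbp5 and -0.10 to 0.11 for Slc6a6; for the difference of effects, -0.14 to 0.55 for Col5a1 and -0.075 to 0.15 for Slc6a6; and between the wild types, -0.0010 to 0.16 for Klf5, -0.043 to 0.047 for Rxrb and -0.075 to 0.12 for Slc6a6. The cause was not tested. CPM on total counts without TMM factors moved the mean sums in Aifm1-WT by more than 1 SD for arachnoid barrier genes (58.8) and astrocyte genes (5063).

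With the number as a replicate block, 0 genes were called for the knock-in, 3 for Harlequin and 2 for the difference of effects, and no call on a member changed. For Harlequin 1433 genes then had an unadjusted p under 0.05 in edgeR's quasi-likelihood test, against 385 without the block. In the Aifm1 stock same-numbered libraries did not deviate together (correlations 0.06, 0.10, 0.04 and -0.03), so the block there shares only a number. Low levels rest on few counts: Igf2 fell to 2 counts in a library, Ogn to 10, Slc22a6 to 12, and Lum and Aldh1a2 to 13.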
